A study of Mus musculus with 34 samples.

Results

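Cyp4a12a, Elovl3, Hsd3b5, Cyp7b1, Cyp2d9, Ugt2b1 and Sult2a8 are liver genes for enzymes of fatty acid, steroid and sterol metabolism whose expression in male mouse liver depends on growth hormone. They were chosen by symbol, and all 7 were among the 14086 genes of a normalized count table of 18 mouse liver libraries. Of the 7 genes, 6 were among the 1659 genes of a second table of z-scores, which lacked Sult2a8. The authors named that table as one of differentially expressed genes of skip1, skip2, subtype A and subtype B. The study compared liver tumours driven by beta-catenin isoforms that lack an exon, modelled by hydrodynamic injection, a rapid tail vein injection that takes plasmids into hepatocytes. The count table held 2 wild type libraries, 3 with the beta-catenin skip 1 isoform alone (skip1 alone), 2 with the skip 2 isoform alone (skip2 alone), 5 labelled skip 1 isoform induced (skip1 induced), 2 labelled skip 2 isoform induced (skip2 induced) and 4 labelled ΔN90-β-catenin induced (dN90 induced, a beta-catenin without its N terminus). The z-scores that were tested came from 4 subtype A libraries, 9 subtype B libraries and 3 libraries labelled sgActin and YAPS127A, a guide against actin given with an activated form of YAP. The labels do not say what the induced groups received besides the isoform, and give no strain, age, sex or animal. Groups of libraries may therefore hold technical repeats, and p-values measure only the spread between these libraries.

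In rodents the pituitary of males releases growth hormone in pulses separated by long gaps, while that of females releases it almost continuously. Each pulse activates STAT5 in hepatocytes through the growth hormone receptor and JAK2, and the intermittent pattern keeps a male set of liver genes on. The same pattern holds down a female set that includes the repressor gene Cux2. Several male-set genes also need HNF4A, a nuclear receptor that defines hepatocytes, and fall when hepatocytes lose their mature state. Elovl3 is in addition under the control of the circadian clock in liver.

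The gene coordinates are from GENCODE on mm10. Cyp4a12a, which hydroxylates the end carbon of arachidonic acid and other fatty acids, lies on chromosome 4 (115299046 to 115332815). Elovl3, an elongase of saturated and monounsaturated very long chain fatty acids, lies on chromosome 19 (46131897 to 46135694). Hsd3b5, a member of the 3-beta-hydroxysteroid dehydrogenase family that works as a ketosteroid reductase, lies on chromosome 3 (98618634 to 98630252). Cyp7b1, the oxysterol hydroxylase of the alternative bile acid pathway, lies on the same chromosome (18071950 to 18243338). Cyp2d9, a testosterone hydroxylase, lies on chromosome 15 (82433437 to 82456845). Ugt2b1, a glucuronosyltransferase of steroids and drugs, lies on chromosome 5 (86916638 to 86926530), and Sult2a8, a bile acid sulfotransferase, lies on chromosome 7 (14410686 to 14446769). The 50-base stretches of the longest protein-coding transcript of each gene were compared with other genes, and exon bases outside that transcript were not. Of these stretches, 48.88% of those of Cyp4a12a also occur in its neighbour Cyp4a12b, 29.04% of those of Cyp2d9 in other genes (the most, 10.7%, in Cyp2d12) and 21.2% of those of Hsd3b5 in other genes (the most, 18.2%, in Gm10681). Counts of these 3 genes may hold reads that belong to their copies. None of these stretches of Elovl3, Cyp7b1, Sult2a8 and Ugt2b1 occur in another gene.

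Promoter sequence was at hand for 4 of the 7 genes, from RefSeq on GRCm38.p6, and is shown because the genes moved together. Each run is what lies upstream of a RefSeq start site, 5′ to 3′ on the strand of the gene, without bases that lie in a GENCODE exon of the gene. Capitals mark matches on either strand to the motifs searched, which were TTCNNNGAA (STAT5), CAAAGT (HNF4A), ATTGAT (ONECUT1), CTTTGAT (TCF/LEF) and TGTTTAC (FOXA). The Ugt2b1 run is chr5:86926531-86926753 (minus strand), the Cyp2d9 run chr15:82452127-82452333 (plus strand, inside the GENCODE gene) and the Hsd3b5 run chr3:98645535-98645784 (minus strand, upstream of the GENCODE gene). The Sult2a8 runs are chr7:14446770-14446837 at the outer and chr7:14438562-14438801 at the inner of its starts (minus strand).
Ugt2b1: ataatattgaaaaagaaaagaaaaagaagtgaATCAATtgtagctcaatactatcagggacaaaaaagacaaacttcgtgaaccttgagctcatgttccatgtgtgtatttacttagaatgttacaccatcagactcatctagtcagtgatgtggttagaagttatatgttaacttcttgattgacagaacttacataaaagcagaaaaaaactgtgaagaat
Cyp2d9: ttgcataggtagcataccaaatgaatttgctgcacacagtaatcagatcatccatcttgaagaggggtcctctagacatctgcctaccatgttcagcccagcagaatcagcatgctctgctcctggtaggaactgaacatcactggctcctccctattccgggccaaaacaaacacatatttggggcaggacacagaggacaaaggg
Hsd3b5: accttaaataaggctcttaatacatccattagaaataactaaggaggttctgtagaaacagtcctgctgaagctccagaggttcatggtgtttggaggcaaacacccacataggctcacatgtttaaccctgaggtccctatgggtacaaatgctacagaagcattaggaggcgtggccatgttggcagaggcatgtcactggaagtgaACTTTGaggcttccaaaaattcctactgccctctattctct
Sult2a8 outer: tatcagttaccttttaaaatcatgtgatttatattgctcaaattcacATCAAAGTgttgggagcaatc
Sult2a8 inner: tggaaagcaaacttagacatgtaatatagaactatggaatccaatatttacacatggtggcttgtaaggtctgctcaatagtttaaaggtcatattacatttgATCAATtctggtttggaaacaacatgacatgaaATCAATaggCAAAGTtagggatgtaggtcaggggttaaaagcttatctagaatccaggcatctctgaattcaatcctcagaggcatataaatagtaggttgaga

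None of the runs held the STAT5 motif, which occurs in 7.02% of the 32851 RefSeq upstream windows of 250 bases. The HNF4A motif, in 12.6% of windows, began 41 bases upstream of the Hsd3b5 start (position -41) and at -201 and -105 of the outer and inner Sult2a8 starts. The ONECUT1 motif, in 6.72% of windows, was at -218 in Ugt2b1 and at -147 and -114 in the inner Sult2a8 run. The TCF/LEF motif, in 3.21%, was at -203 of the outer Sult2a8 start, where it overlaps the HNF4A match. The FOXA motif, in 3.17%, was in none. These are matches of letters only, and a window without a match says nothing about binding elsewhere.

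Normalized counts are read counts that the authors scaled per library. Estimated reads per library ran from 361771 (dN90 induced replicate 3) to 933145 (skip2 induced replicate 1), and 1 estimated read was worth 0.460 to 1.64 normalized counts. Per kilobase of exon, Cyp2d9 was the most abundant of the 7 genes in wild type liver (412.5 normalized counts per kilobase, mean of 2 libraries), followed by Ugt2b1 (122.5), Hsd3b5 (108.7), Cyp4a12a (68.97), Cyp7b1 (65.68), Sult2a8 (65.05) and Elovl3 (59.04). The last 4 were close, and Elovl3 was 5.735 in 1 wild type library and 112.4 in the other. The lengths are those of the exons of all GENCODE transcripts of a gene, merged. For Sult2a8 they came to 3284 bases, though its longest protein-coding transcript held 2094 different stretches of 50 bases, so its place depends on the length used. The albumin gene Alb stood between 7945 and 54545 normalized counts in every library, so all hold hepatocyte RNA. Transcripts of the Y-linked genes Ddx3y (8.52 to 26.6) and Eif2s3y (8.30 to 25.2) were present in all 18 libraries, and Xist was between 0 and 6.82.

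The isoforms alone did not differ from wild type beyond the spread between libraries for any of the 7 genes. Of the 7 genes, 0 passed limma's test (adjusted p under 0.05) in skip1 alone against wild type, with 0 at an unadjusted p under 0.05. Among all 6592 genes tested, 0% were called, with 272 at an unadjusted p under 0.05. In skip2 alone against wild type 0 of the 7 were called, also with 0 at an unadjusted p under 0.05, against 0.0152% of all genes (1 gene, and 330 at an unadjusted p under 0.05). The differences in log2(normalized count + 1) ran from -0.74 (Hsd3b5, 95% confidence interval -1.69 to 0.20) to 0.65 (Elovl3, -1.39 to 2.68) for skip1 alone. For skip2 alone they ran from -1.82 (Elovl3, -4.05 to 0.41) to 0.34 (Cyp2d9, -0.52 to 1.19). With groups of 2 and 3 libraries these intervals leave room for sizeable differences, and 1 of the 2 wild type libraries set the sign for Elovl3. Without wild type replicate 1 the skip1 alone difference was -1.44, and without wild type replicate 2 the skip2 alone difference was 0.26.

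All 7 genes were lower in every induced group, and the depth of the fall differed between groups. In skip1 induced samples, Ugt2b1 (44.3%), Cyp4a12a (39.99%), Cyp2d9 (39.96%) and Sult2a8 (39.4%) kept the larger shares of the skip1 alone mean, and Hsd3b5 (17.9%), Elovl3 (14.7%) and Cyp7b1 (12.9%) the smaller ones. In skip2 and dN90 induced samples Hsd3b5, Elovl3 and Cyp4a12a were close to or at 0, whereas Cyp2d9 kept 19.4% and 16.7% of the mean of skip2 alone and wild type. Of the 7 genes, 7 were called lower in skip1 induced against skip1 alone, where 8.18% of all genes were lower and 6.55% higher. Of the 7, 7 were lower in skip2 induced against skip2 alone (8.42% of all genes lower, 6.52% higher), and 7 in dN90 induced against wild type (12% of all genes lower, 10.8% higher). The median difference of the 7 genes in log2(normalized count + 1) was -1.44, -4.74 and -5.71 in that order, beside a median over all genes of -0.02, -0.06 and 0.01. The scale understates the change of genes that end near 0.

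The balance of all calls depended on how libraries were scaled. As deposited, 44.5%, 43.7% and 47.4% of the genes called in skip1, skip2 and dN90 induced samples were higher. These shares were 60.4%, 57.5% and 56.9% after upper-quartile scaling, 56.8%, 56.1% and 52.8% after quantile normalization, and 89.5%, 86.7% and 82.6% with libraries scaled to 1 total. The 7 genes were lower under each of these scalings in all 3 comparisons. All 7 were called in skip2 and dN90 induced samples each time, and 6, 5 and 5 of the 7 in skip1 induced samples.

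**Figure D1:**
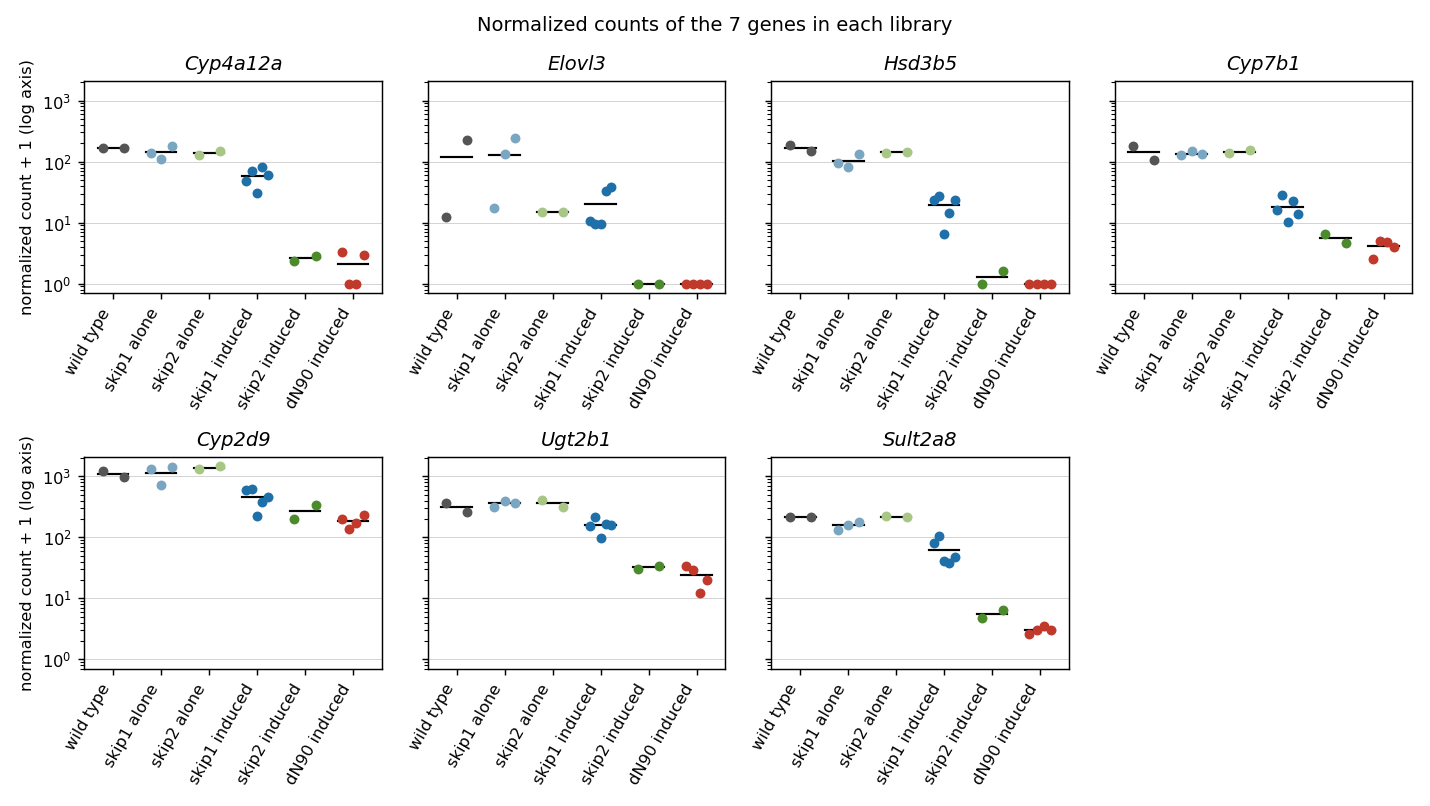
Normalized count + 1 (log axis) of the 7 genes in each of 18 libraries, by group; points are libraries and lines are group means. All 4 dN90 induced libraries and both skip2 induced libraries lie below every non-induced library for each gene, and the skip1 induced libraries lie between them, with overlap for Elovl3 and Cyp2d9. How many of all genes lie apart in this way was not counted.

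Of the fatty acid genes, Cyp4a12a was 165.4 and 168.7 in wild type, 136.5, 110.4 and 181.1 in skip1 alone, and 128.3 and 145.6 in skip2 alone. It was 47.3, 68.5, 29.7, 81.2 and 58.6 in skip1 induced, 1.38 and 1.79 in skip2 induced, and 2.36, 0, 0 and 1.99 in dN90 induced samples. The induced and non-induced libraries did not overlap, and neither did skip1 induced with the other induced groups. For this and other normalized counts given by library, how many of all genes part in the same way was not counted. The difference was -1.35 in skip1 (SE 0.37, limma adjusted p = 0.0181), -5.74 in skip2 (SE 0.51, adjusted p = 3.2e-07) and -6.56 in dN90 induced samples (SE 0.44, adjusted p = 1.63e-09), on the log2 scale. The skip1 call was lost without skip1 alone replicate 3 (difference -1.17, adjusted p = 0.102) and without skip1 induced replicate 3 (-1.15, adjusted p = 0.0514). It was also lost with a pseudocount of 0.5 (-1.36, adjusted p = 0.0592) and with libraries scaled to 1 total (-0.88, adjusted p = 0.0892).

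Elovl3 varied most within groups. It was 11.3 and 221.9 in wild type, 16.4, 131.2 and 239.8 in skip1 alone, and 13.9 and 13.7 in skip2 alone. It was 9.68, 8.33, 8.36, 31.6 and 37.3 in skip1 induced samples, and was listed at 0 in both skip2 and all 4 dN90 induced libraries. The range of skip1 induced samples thus overlapped that of skip1 alone. The difference was -2.33 in skip1 (SE 0.78, limma adjusted p = 0.0495), -3.89 in skip2 (SE 1.07, adjusted p = 0.0172) and -5.71 in dN90 induced samples (SE 0.93, adjusted p = 0.00012). The skip1 call was lost without skip1 alone replicate 2 or 3 or without skip1 induced replicate 1, 2 or 3 (-1.56 to -2.18, adjusted p from 0.0786 to 0.293). It was also lost with a pseudocount of 0.5, with each of the 3 other scalings and with depth as a covariate (adjusted p from 0.0591 to 0.082). The skip2 call was lost without any 1 of its 4 libraries (-3.88 to -3.90, adjusted p from 0.0601 to 0.0923) and with a pseudocount of 5 (-1.91, adjusted p = 0.167).

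The spread of Elovl3 among non-induced libraries followed that of clock genes, a pattern found after the values were seen. Tef, a transcription factor gene driven by the circadian clock, was between 86.8 and 154 in 12 libraries and between 25.7 and 33.6 in the other 6. Usp2, another clock output gene, was between 16.8 and 50.2 in the 12 and 0 and 4.74 in the 6, and Arntl, whose product drives the clock, was at most 3.42 in the 12 and between 3.32 and 10.2 in the 6. The clock genes Per2, Per3 and Dbp also parted between the 12 and the 6. Per1 overlapped, at 12.9 to 36.7 in the 12 and 3.20 to 19.9 in the 6. The 6 libraries low in Tef were wild type replicate 2, skip1 alone replicates 2 and 3, and skip1 induced replicates 3, 4 and 5, so all skip2 alone, skip2 induced and dN90 induced libraries were high in Tef. Among non-induced libraries Elovl3 was 11.3 to 16.4 in the 4 high in Tef and 131.2 to 239.8 in the 3 low in Tef. The skip1 induced libraries were lower than the non-induced ones in both states, at 8.33 and 9.68 where Tef was high and 8.36 to 37.3 where it was low. Elovl3 thus overlapped between the states in skip1 induced libraries. The other 6 genes overlapped between the states among non-induced libraries. Among skip1 induced libraries, 2 high and 3 low in Tef, Cyp4a12a, Cyp7b1 and Ugt2b1 overlapped as well. Sult2a8 was 80.7 and 102.7 where Tef was high and 37.0 to 46.9 where Tef was low, and Cyp2d9 599.3 and 627.2 there and 222.0 to 456.8. Hsd3b5 was 22.59 and 26.8 where Tef was high and 5.57 to 22.36 where it was low, so its ranges nearly touched. How many of all genes part in a split of so few libraries was not counted. The labels give no time of collection, and the part of clock phase in the differences was not tested beyond the following fits, both added after the data were seen.

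**Figure D2:**
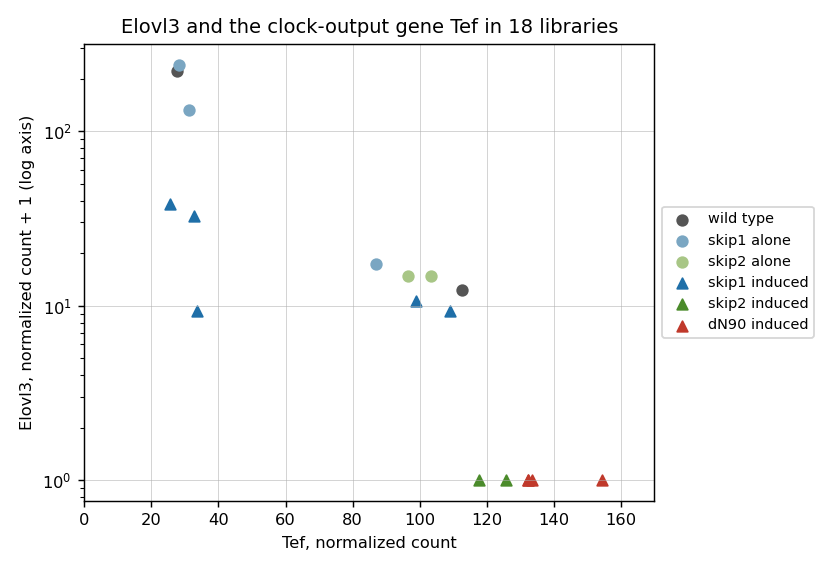
Elovl3 (normalized count + 1, log axis) against Tef (normalized count) in each of 18 libraries, coloured by group, with circles for non-induced and triangles for induced libraries. The non-induced libraries fall at 131.2 to 239.8 where Tef is low and at 11.3 to 16.4 where it is high, and the 6 skip2 and dN90 induced libraries sit at 0 with Tef high.

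With Tef state as a covariate all 7 genes were still called in each of the 3 induced comparisons, and the Elovl3 difference was -2.17 in skip1 and -4.50 in dN90 induced samples. Within the 12 libraries high in Tef, the Elovl3 difference was -3.62 in dN90 induced samples against wild type, and the difference of skip1 induced from skip1 alone was -0.81 (limma adjusted p = 0.741). That last comparison held 2 libraries against 1, and of the 7 genes only Cyp7b1 was called in it.

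Among the steroid and sterol genes, Hsd3b5 was 188.0 and 148.8 in wild type, 92.1, 81.7 and 131.1 in skip1 alone, and 139.9 and 141.5 in skip2 alone. It was 22.6, 26.8, 5.57, 13.5 and 22.4 in skip1 induced, 0 and 0.596 in skip2 induced, and listed at 0 in all 4 dN90 induced libraries, where 3 estimated reads would be 2.36 to 3.76. No induced library reached the lowest non-induced one. The difference was -2.56 in skip1 (SE 0.36, limma adjusted p = 9.19e-05), -6.81 in skip2 (SE 0.50, adjusted p = 1.63e-08) and -7.39 in dN90 induced samples (SE 0.43, adjusted p = 3.26e-10).

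Cyp7b1 was 179.0 and 105.5 in wild type, 126.6, 146.1 and 131.1 in skip1 alone, and 137.6 and 152.4 in skip2 alone. It was 15.1, 27.8, 9.29, 21.7 and 12.8 in skip1 induced, 5.52 and 3.57 in skip2 induced, and 1.57, 4.08, 3.76 and 2.98 in dN90 induced samples. Of the 7 genes it had the largest difference in skip1 induced samples, -2.98 (SE 0.30, limma adjusted p = 2.57e-06), where the groups stood far apart. The difference was -4.74 in skip2 (SE 0.42, adjusted p = 2.96e-07) and -5.13 in dN90 induced samples (SE 0.36, adjusted p = 2.95e-09), where the values rest on 2 to 4 estimated reads.

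Cyp2d9 was 1206 and 986.5 in wild type, 1297, 728.3 and 1407 in skip1 alone, and 1312 and 1452 in skip2 alone. It was 599.3, 627.2, 222.0, 380.9 and 456.8 in skip1 induced, 201.4 and 334.8 in skip2 induced, and 196.6, 135.7, 170.6 and 231.5 in dN90 induced samples. It kept the largest share of its non-induced level in skip2 and dN90 induced samples, and its skip1 induced range overlapped those of both other induced groups. The difference was -1.36 in skip1 (SE 0.30, limma adjusted p = 0.00431), -2.41 in skip2 (SE 0.41, adjusted p = 0.000429) and -2.59 in dN90 induced samples (SE 0.36, adjusted p = 1.84e-05). The skip1 call was lost with quantile normalization (-0.67, adjusted p = 0.0994).

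Of the conjugating enzymes, Ugt2b1 was 370.4 and 260.1 in wild type, 310.8, 391.2 and 369.8 in skip1 alone, and 400.0 and 315.9 in skip2 alone. It was 151.7, 216.5, 97.5, 166.1 and 159.7 in skip1 induced, 29.4 and 32.8 in skip2 induced, and 32.2, 28.6, 11.3 and 18.9 in dN90 induced samples. All induced libraries were below all non-induced ones. The difference was -1.21 in skip1 (SE 0.28, limma adjusted p = 0.00576), -3.48 in skip2 (SE 0.38, adjusted p = 4.51e-06) and -3.81 in dN90 induced samples (SE 0.33, adjusted p = 6.1e-08).

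Sult2a8 was 211.9 and 215.4 in wild type, 131.6, 157.7 and 179.1 in skip1 alone, and 223.2 and 210.2 in skip2 alone. It was 80.7, 102.7, 39.96, 37.0 and 46.9 in skip1 induced, 3.68 and 5.36 in skip2 induced, and 1.57, 2.04, 2.51 and 1.99 in dN90 induced samples. The 3 induced groups did not overlap each other, though each dN90 induced value rests on 2 estimated reads, beside 8 and 9 in the skip2 induced libraries. The difference was -1.44 in skip1 (SE 0.28, limma adjusted p = 0.00144), -5.32 in skip2 (SE 0.38, adjusted p = 1.63e-08) and -6.16 in dN90 induced samples (SE 0.33, adjusted p = 1.13e-10).

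**Figure D3:**
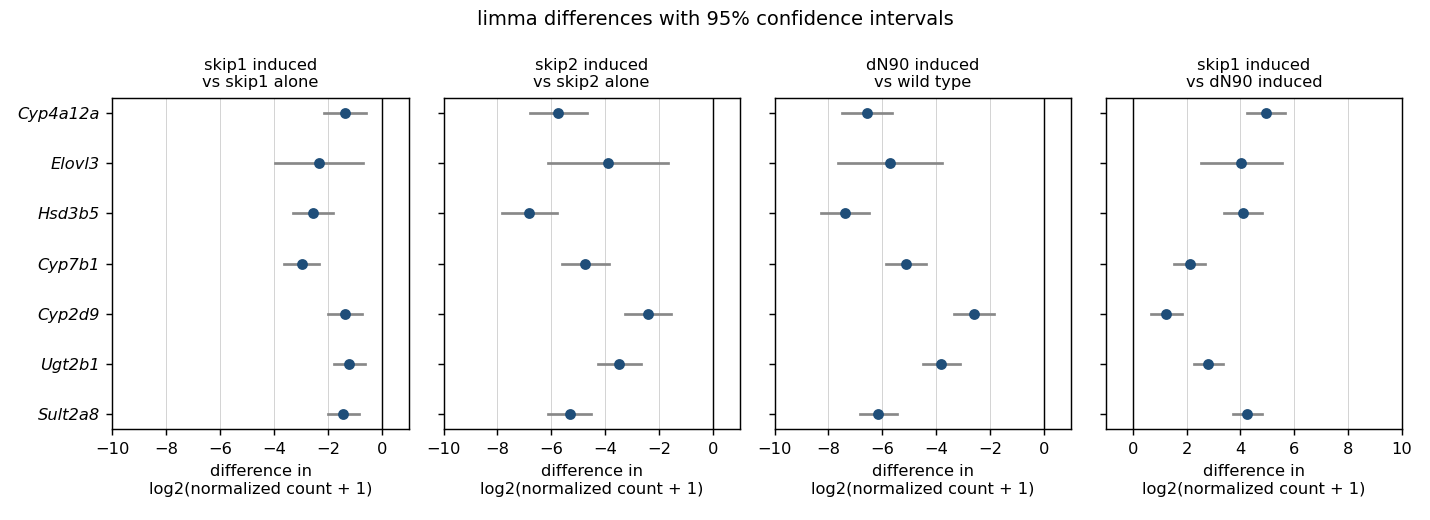
Differences in log2(normalized count + 1) of the 7 genes from limma in 4 comparisons, with 95% confidence intervals as bars. In skip1 induced samples the differences lie between -2.98 and -1.21, in skip2 and dN90 induced samples between -7.39 and -2.41, and skip1 exceeds dN90 induced samples by 1.25 to 4.95.

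Set against each other, skip1 induced samples held more of these transcripts than the other induced groups. Of the 7 genes, 6 passed with higher values in skip1 induced than in skip2 induced samples, where 3.09% of all genes were higher and 0.44% lower (72.3% of calls higher with quantile normalization in place of 87.6%). Cyp4a12a differed most (4.42, SE 0.43, limma adjusted p = 4.21e-06), followed by Elovl3 (4.03), Hsd3b5 (3.76), Sult2a8 (3.40), Ugt2b1 (2.27) and Cyp7b1 (1.65). Cyp2d9 did not pass (0.72, 95% confidence interval 0.01 to 1.44, adjusted p = 0.292). Clock state was uneven here and in the comparison with dN90 induced samples. All skip2 and dN90 induced libraries were high in Tef, and 3 skip1 induced libraries were low in it. In the 2 skip1 induced libraries high in Tef, Elovl3 was 8.33 and 9.68, beside 0 in the skip2 and dN90 induced libraries. Without skip2 induced replicate 1 or 2 the number called was 4. Elovl3 (adjusted p = 0.321 and 0.0513) and Cyp7b1 (1.91, adjusted p = 0.17, and 1.40, adjusted p = 0.0934) were then lost. Elovl3 was also lost with a pseudocount of 5 (2.07, adjusted p = 0.131) and Cyp7b1 with depth as a covariate (1.57, adjusted p = 0.391).

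Against dN90 induced samples 7 of the 7 genes were higher in skip1 induced samples, with 3.17% of all genes higher and 1.46% lower. The difference was 4.95 for Cyp4a12a (SE 0.34, limma adjusted p = 4.67e-09), 4.26 for Sult2a8, 4.10 for Hsd3b5, 4.03 for Elovl3, 2.80 for Ugt2b1, 2.11 for Cyp7b1 and 1.25 for Cyp2d9 (SE 0.28, adjusted p = 0.00781). The Elovl3 call was lost with a pseudocount of 5 (2.07, adjusted p = 0.0506), and the Cyp2d9 call without skip1 induced replicates 1 and 2 (0.90, adjusted p = 0.0837). Within skip1 induced samples, replicate 3 had the lowest value of 5 of the 7 genes and replicate 2 the highest of 5.

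The skip2 and dN90 induced samples were alike in that all 7 genes were low in both. Of the 7 genes, 0 were called between them by limma, with 1 at an unadjusted p under 0.05, where 3.03% of all genes were called. Sult2a8 was 0.86 higher in skip2 induced samples (95% confidence interval 0.18 to 1.54, adjusted p = 0.197). For Cyp4a12a, Hsd3b5, Cyp7b1, Cyp2d9 and Ugt2b1 the differences were 0.34 to 0.53, with intervals from -0.56 to 1.45, so differences of that size are not shown to be absent. Elovl3 was listed at 0 in all 6 libraries.

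The induced samples of each isoform were also compared with that isoform alone in 1 model. The fall was larger with skip2 than with skip1 for 3 of the 7 genes, where 0.137% of all genes were called in that direction (9 of 6592) and 0.0303% in the other. Cyp4a12a differed by 4.39 (SE 0.63, limma adjusted p = 0.00138), Hsd3b5 by 4.25 (SE 0.61, adjusted p = 0.00138) and Sult2a8 by 3.88 (SE 0.47, adjusted p = 0.000339). The difference of falls was 2.27 for Ugt2b1 (adjusted p = 0.0503), 1.76 for Cyp7b1 (adjusted p = 0.226), 1.56 for Elovl3 (adjusted p = 0.782) and 1.05 for Cyp2d9 (adjusted p = 0.506), and these were not called. The number called turned on the settings. Ugt2b1 was called with a pseudocount of 5, no filter, a minimum mean of 50, upper-quartile or quantile normalization, only the compared groups, depth or Tef state as a covariate, or array weights (adjusted p from 0.0112 to 0.0472). It was also called without skip1 induced replicate 3 or skip2 induced replicate 2 (adjusted p = 0.023 and 0.0221). Hsd3b5 was not called at a minimum mean of 50 (adjusted p = 0.0546), and leaving out 1 library moved the Elovl3 value between 0.44 and 2.33. The skip2 arm rests on 2 libraries against 2. Within the 12 libraries high in Tef 2 of the 3 were called, and Cyp4a12a was not (4.49, adjusted p = 0.0775).

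Markers of some cell types also differed between these groups. Of 24 hepatocyte function genes, 14, 11 and 12 were lower in skip1, skip2 and dN90 induced samples against skip1 alone, skip2 alone and wild type, and 0 were higher. Their median differences were -1.19, -1.29 and -1.46, close to that of the 7 genes in skip1 induced samples (-1.44) and far from it in skip2 (-4.74) and dN90 induced samples (-5.71). The summed level of the 24 genes was 91412 to 117599 in non-induced, 33531 to 79898 in skip1 (median 45209), 61242 to 69887 in skip2 and 38754 to 49099 in dN90 induced libraries. The skip2 and dN90 induced ranges both lay within the skip1 induced range. The hepatocyte counts turned on scaling. With quantile normalization 4, 5 and 8 of the 24 were lower and 4, 3 and 5 higher, and with libraries scaled to 1 total 11, 8 and 12 were lower and 1, 3 and 3 higher. The summed level of 8 biliary markers was 14.6 to 45.6 in non-induced and 170 to 812 in induced libraries, with Krt7 and Epcam listed at 0 in both wild type libraries. That of 10 macrophage markers was 250.4 to 349.3 in non-induced libraries, 348.0 to 562.9 in skip1, 438.0 to 484.7 in skip2 and 277.7 to 432.5 in dN90 induced ones. That of 9 stellate and fibroblast markers was 150.3 to 238.2 in non-induced libraries, 244.6 to 350.03 in skip1, 396.3 to 445.8 in skip2 and 123.3 to 271.5 in dN90 induced ones. Endothelial markers (9 genes) summed to 269.8 to 316.5 in non-induced libraries. In skip1, skip2 and dN90 induced ones they summed to 267.5 to 332.6, 263.4 to 272.5 and 166.2 to 292.2. Lymphocyte sums (7 genes) were 4.98 to 18.1 in non-induced libraries, and 16.1 to 41.9, 16.6 to 22.7 and 16.7 to 27.7 in that order. The biliary sums lay above the non-induced range in every induced group. The macrophage sums overlapped it in skip1 and dN90 induced samples, the stellate sums in dN90 induced samples, and the endothelial and lymphocyte sums in every induced group. In these tissue samples fewer hepatocytes and less RNA per hepatocyte cannot be told apart, and the part of cell composition in the differences was not tested.

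Growth hormone signalling was followed through 12 genes, of which 8 passed the filter on low values. The receptor gene Ghr was 324 and 376 in wild type, 241, 284 and 347 in skip1 alone, and 318 and 396 in skip2 alone. It was 108 to 206 in skip1 (median 135), 67.0 and 96.9 in skip2 and 23.2 to 59.9 in dN90 induced samples (n = 4), so each induced group lay below all non-induced libraries and dN90 induced samples lay lowest. The difference was -1.07 in skip1 (SE 0.26, limma adjusted p = 0.00913), -2.12 in skip2 (SE 0.36, adjusted p = 0.000397) and -3.19 in dN90 induced samples (SE 0.31, adjusted p = 2.76e-07). Skip1 induced samples held more Ghr than dN90 induced ones, by 1.84 (SE 0.24, adjusted p = 3.8e-05). The skip1 call was lost without skip1 alone replicate 3 (-0.93, adjusted p = 0.062), with quantile normalization (-0.69, adjusted p = 0.0765) and with libraries scaled to 1 total (-0.59, adjusted p = 0.0654).

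In skip1 induced samples 3 of the 8 were lower and 1 higher, in skip2 induced samples 1 was lower, and in dN90 induced samples 3 were lower. Below the filter and tested without it, Cish differed by 1.70, 2.01 and 1.40 and Socs2 by 1.43, 0.92 and 1.16 in that order. Ptpn2 differed by 0.57, 0.83 and 0.15 and Stat5a by -0.02, -0.03 and 0.78, and none of these was called. With libraries scaled to 1 total, 0, 1 and 2 were lower and 1, 0 and 1 higher. Igfals, the subunit that carries circulating IGF1, differed by -1.14 in skip1 (SE 0.32, limma adjusted p = 0.019) and -2.39 in dN90 induced samples (SE 0.38, adjusted p = 8.86e-05). Igf1, the growth factor that growth hormone induces in liver, differed by -0.97 (SE 0.31, adjusted p = 0.0378) and -1.22 (SE 0.37, adjusted p = 0.0193). The Igfals call in skip1 was lost without skip1 alone replicate 1 or 3 or skip1 induced replicate 3 (adjusted p from 0.0501 to 0.0634), and the Igf1 call without any of 6 of the 8 libraries (adjusted p from 0.0563 to 0.153). With libraries scaled to 1 total both skip1 calls were lost (-0.68 and -0.50, adjusted p = 0.106 and 0.204), and the Igf1 call also with quantile or upper-quartile normalization or depth as a covariate. The Igf1 call in dN90 induced samples was lost without wild type replicate 1 (-0.89, adjusted p = 0.226), with quantile normalization, total scaling, depth as a covariate or only the compared groups (adjusted p from 0.0586 to 0.143). Ptpn1, a phosphatase of the JAK2 pathway, was higher in skip1 induced samples (1.23, SE 0.29, adjusted p = 0.00679), a call lost without skip1 alone replicate 3 (0.93, adjusted p = 0.0652). Stat5b, whose product carries the pulse signal to the nucleus, was not called in any of these comparisons, with means between 23.99 and 36.4 in the 6 groups.

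A list of 18 transcription factor genes that regulate sex-biased liver genes held 13 that were tested, and limma called 0 in either direction in skip1, skip2 and dN90 induced samples, with 0, 0 and 2 at an unadjusted p under 0.05. With libraries scaled to 1 total instead, 1, 1 and 2 were called higher.

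Most other male-biased genes that were tested were lower as well. Of 23 such genes 20 were tested, and 12 were lower in skip1, 18 in skip2 and 20 in dN90 induced samples, with 0 higher, at median differences of -2.02, -3.12 and -4.75. The 8 not called in skip1 included Mup20 (-0.05), Nox4 (-0.13) and Slco1a1 (-0.48). Mup7, a major urinary protein gene with close copies that may share its reads, differed by -4.76, -9.34 and -10.97 in that order. Skip1 induced samples held more of 9 of the 20 than skip2 and of 16 than dN90 induced samples. Between skip2 and dN90 induced samples, where none of the 7 genes was called, 6 of the 20 were higher in skip2, beside 0.576% of all genes. They included by size Mup20, the pheromone darcin (3.15), the antitrypsin gene Serpina1e (2.73), the complement gene C8a (2.58) and Mup3 (1.95). The Serpina1e call was lost without skip2 induced replicate 1 (2.59, adjusted p = 0.448) or dN90 induced replicate 2 (2.48, adjusted p = 0.0546). The Mup3 call was lost without either skip2 induced replicate or dN90 induced replicate 2, 3 or 4 (adjusted p from 0.056 to 0.585). With depth as a covariate none of the 4 was called (Mup20 2.45, adjusted p = 0.391, and the others 0.998), nor was any other gene, and with only the compared groups C8a was lost (adjusted p = 0.0769), as were Mup3 and Serpina1e.

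Few female-biased genes were measurable. Only 4 of 27 such genes passed the filter, and 2, 3 and 3 of the 4 were higher in skip1, skip2 and dN90 induced samples, with 0 lower. In skip1 Cyp39a1 and Abcd2, and in skip2 and dN90 Gbp6, were not called. Fmo2, a flavin monooxygenase gene, was 7.96 and 3.34 in wild type, 1.65, 4.62 and 1.07 in skip1 alone, and 4.64 and 4.13 in skip2 alone. It was 23.7, 12.995, 16.8, 9.96 and 11.8 in skip1 induced, 53.5 and 37.7 in skip2 induced, and 118, 105, 133 and 65.3 in dN90 induced samples. The 3 induced groups did not overlap, with skip1 lowest and dN90 highest. The rise was 2.29 in skip1 (SE 0.35, limma adjusted p = 0.000213), 3.09 in skip2 (SE 0.48, adjusted p = 0.00017) and 4.04 in dN90 induced samples (SE 0.42, adjusted p = 4.93e-07), and skip1 lay below dN90 induced samples by 2.74 (difference -2.74, SE 0.32).

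Cyp39a1, an oxysterol hydroxylase gene like Cyp7b1, rose by 1.92 in skip2 (SE 0.41, limma adjusted p = 0.00324) and 2.06 in dN90 induced samples (SE 0.36, adjusted p = 0.00025). Cyp7b1 fell in both, as given above. Abcd2, a peroxisomal fatty acid transporter gene, was called in skip2 (3.04) and dN90 (2.62), but not without skip2 alone replicate 2, either skip2 induced replicate or either wild type replicate (adjusted p from 0.0655 to 0.374). Its skip2 call was also lost with depth as a covariate or only the compared groups (adjusted p = 0.227 and 0.0758). Gbp6, an interferon-induced gene, was called in skip1 induced samples (1.43), but not without skip1 alone replicate 1 or skip1 induced replicate 4 or 5 (adjusted p from 0.0581 to 0.17), quantile normalization or only the compared groups (adjusted p = 0.0614 and 0.0554).

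Without a filter on low values, 17 of the 27 female-biased genes were tested. Of these, 3 were higher and 2 lower in skip1 induced samples (5.75% of all 14086 genes higher), 7 higher and 1 lower in skip2 (4.43%) and 10 higher and 1 lower in dN90 induced samples (7.44%). Against dN90 induced samples 8 were lower in skip1 induced samples (0.887% of all genes lower). Cyp2b10, a P450 gene induced by many drugs, was the gene lower in all 3 (-1.95, -2.47 and -2.42, adjusted p = 0.0181, 0.0314 and 0.00909). Cyp2c40, another P450 gene, was the other one lower in skip1 (-2.28, adjusted p = 0.0126). Among the higher ones below the filter, named after their values were seen, Cux2 was 13.4, 10.3, 26.5 and 5.995 in dN90 and 7.40 and 4.79 in skip2 induced samples. It was at most 1.82 in every other library, and was called in dN90 (3.73, adjusted p = 7.28e-05) and not in skip2 (2.18, adjusted p = 0.0508) induced samples. Cyp2b9, a female P450 gene, was listed at 0 in all non-induced libraries and was 4.72, 9.18, 10.03 and 14.9 in dN90 induced samples. The P450 gene Cyp2a4 was listed at 0 in all non-induced libraries, and was 4.60 and 7.15 in skip2 and 3.93, 5.10, 11.3 and 7.95 in dN90 induced samples. These levels correspond to at most 21.1 estimated reads. Of the 23 male-biased genes 21 were lower in dN90 induced samples in the same fit, and Cib3 and Omd, both below the filter, were higher (2.30 and 1.82), as they were in skip1 induced samples (2.09 and 2.52, adjusted p = 0.0363 and 0.00224).

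**Figure D4:**
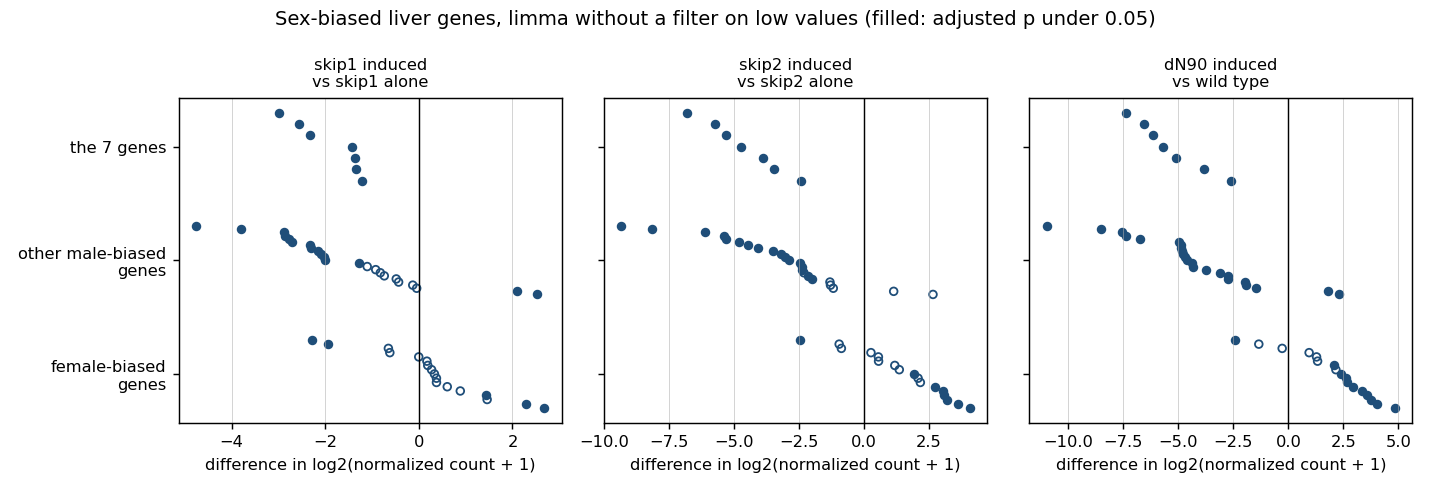
Differences in log2(normalized count + 1) from limma without a filter on low values, for the 7 genes, 23 other male-biased genes and 17 female-biased genes; each point is a gene, filled where adjusted p was under 0.05. In dN90 induced samples the 7 genes lie between -7.39 and -2.59, 21 of the 23 male-biased genes are lower and 2 higher, and 10 of the 17 female-biased genes are higher.

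The families of the 7 genes differed in how far they moved with them. Most other Cyp2d and Ugt2 genes tested were lower in each induced group, as were all 3 other Hsd3b genes in dN90 induced samples. The Cyp4, Elovl, sulfotransferase and bile acid P450 families did not move as blocks. Of all genes tested, 8.18%, 8.42% and 12% were lower in skip1, skip2 and dN90 induced samples. Of 7 other Cyp4 genes tested, 2 were lower in each induced group, Cyp4a12b (-2.30, -3.21 and -4.79 in skip1, skip2 and dN90), which shares sequence with Cyp4a12a, and Cyp4v3 (-1.97, -1.997 and -2.67), a fatty acid hydroxylase gene. The Cyp4a12b call in skip2 was lost without skip2 induced replicate 1 (-2.73, adjusted p = 0.0641). Of 4 other Elovl genes, 0 were called in skip1 and dN90 induced samples with 1 and 0 at an unadjusted p under 0.05 in limma. With libraries scaled to 1 total, 1, 2 and 1 of the 4 were higher. Elovl6 was lower in skip2 (-1.53, SE 0.43, adjusted p = 0.0194), a call lost without any 1 of the 4 libraries (adjusted p from 0.0768 to 0.0963), with quantile normalization, total scaling or depth as a covariate. Of 3 other Hsd3b genes, 0 were lower in skip1 (3 at an unadjusted p under 0.05), 2 in skip2 and 3 in dN90 induced samples. Hsd3b7, which acts after Cyp7b1 in bile acid synthesis, differed by -1.90 in skip2 and -3.00 in dN90 induced samples, the former not called without skip2 induced replicate 1 (-1.30, adjusted p = 0.066).

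Of 5 other Cyp2d genes, 3, 4 and 4 were lower, with Cyp2d40 at -3.51 in skip2 and -3.73 in dN90 induced samples. Of 5 other oxysterol and bile acid P450 genes, 0 were called in skip1 (1 at an unadjusted p under 0.05), and 1 was higher (Cyp39a1, above) and 1 lower in both others, Cyp8b1 of cholic acid synthesis (-2.41 and -2.01). The Cyp8b1 calls were lost without skip2 induced replicate 1 (-1.99, adjusted p = 0.0695) and wild type replicate 2 (-1.37, adjusted p = 0.111), and the dN90 call also with depth as a covariate (-1.62, adjusted p = 0.0605). Of 2 other sulfotransferase genes 1, Sult1a1 of phenol sulfation, was higher in all 3 induced groups (0.80, 1.70 and 2.25), opposite to Sult2a8. Its skip1 call was lost without skip1 alone replicate 3 (0.73, adjusted p = 0.0607). Of 5 other Ugt2 genes 3, 4 and 4 were lower, with Ugt2b5 at -1.28, -1.91 and -2.87. Its skip1 call was lost with quantile normalization (-0.81, adjusted p = 0.0732).

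Across the 18 libraries the 7 genes followed each other. Pearson's r of log2(normalized count + 1) ran from 0.743 to 0.984 over pairs of the 7, and from 0.895 to 0.984 without Elovl3. These are descriptions over libraries that share the same groups and differ in depth. The genes most like the mean of the 7 standardised profiles were Nudt7, a peroxisomal coenzyme A hydrolase gene (r = 0.981), Mup3 (0.980), Scp2, a sterol carrier gene (0.975), and Acsm1, a medium-chain acyl-CoA synthetase gene (0.975), followed by Mup14, Mup21, Fabp1, Cmah, Mup19 and Mup7 (0.966 to 0.973). Hsd3b5 was most like Mup21 (0.983), Cyp7b1 like C8b (0.978), Cyp2d9 like Serpina1c (0.985), Ugt2b1 like Ugt1a6a (0.981), and both Cyp4a12a and Sult2a8 like Mup3 (0.965 and 0.983). Elovl3 stood apart, with Abi3 (0.952), Slc30a10 and Mocos as its nearest genes.

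The z-score table held 6 of the 7 genes, measured in subtype A, subtype B and the YAP control. A z-score here is a gene's deviation from its mean in units of its SD, set by the authors over these 16 libraries and 1 more library for which there is no column, and gives no fold. The scale before z-scoring and the depth are unknown. By the authors' name for the table its genes are differentially expressed ones. The p-values and shares below thus come from a set already selected for differences. All 6 genes were highest in the control, lower in subtype A and lowest in subtype B. Hsd3b5 was 2.28, 1.92 and 2.04 in the control and -0.06, -0.37, -0.40 and -0.32 in subtype A. In subtype B it ran from -0.54 to -0.42 (median -0.51, n = 9). The 3 groups did not overlap for Hsd3b5, nor for the other 5 genes. Every subtype A library above every subtype B library was also the case for 34.8% of the 1659 genes, and every subtype A and B library below every control for 55.0% and 55.3%.

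Of the 6 genes, 4 were called higher in subtype A than in subtype B, where 40.3% of all genes of this selected table were higher and 20.9% lower. The differences were 0.60 for Elovl3 (SE 0.21, limma adjusted p = 0.021), 0.36 for Ugt2b1 (SE 0.10, adjusted p = 0.00589), 0.25 for Cyp2d9 (SE 0.06, adjusted p = 0.00306) and 0.22 for Hsd3b5 (SE 0.08, adjusted p = 0.0224). Cyp4a12a (0.40, 95% confidence interval -0.03 to 0.83, adjusted p = 0.0929) and Cyp7b1 (0.22, -0.11 to 0.55, adjusted p = 0.212) did not pass. Subtype A replicate 1 was the highest of its group for 5 of the 6 genes, with Elovl3 at 0.69 beside -0.26, -0.29 and -0.03 in the others. Without it 2 genes were called, and Elovl3 (0.38, adjusted p = 0.116) and Hsd3b5 (0.14, adjusted p = 0.103) were lost. Against the control 6 of 6 genes were lower in subtype A (-2.36 to -1.88, with 55.6% of all genes lower and 41.7% higher) and 6 of 6 in subtype B (-2.60 to -2.48, with 55.6% lower and 44.1% higher). Nearly all genes of this table were called in 1 direction or the other against the control, so these counts do not set the 6 genes apart.

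**Figure D5:**
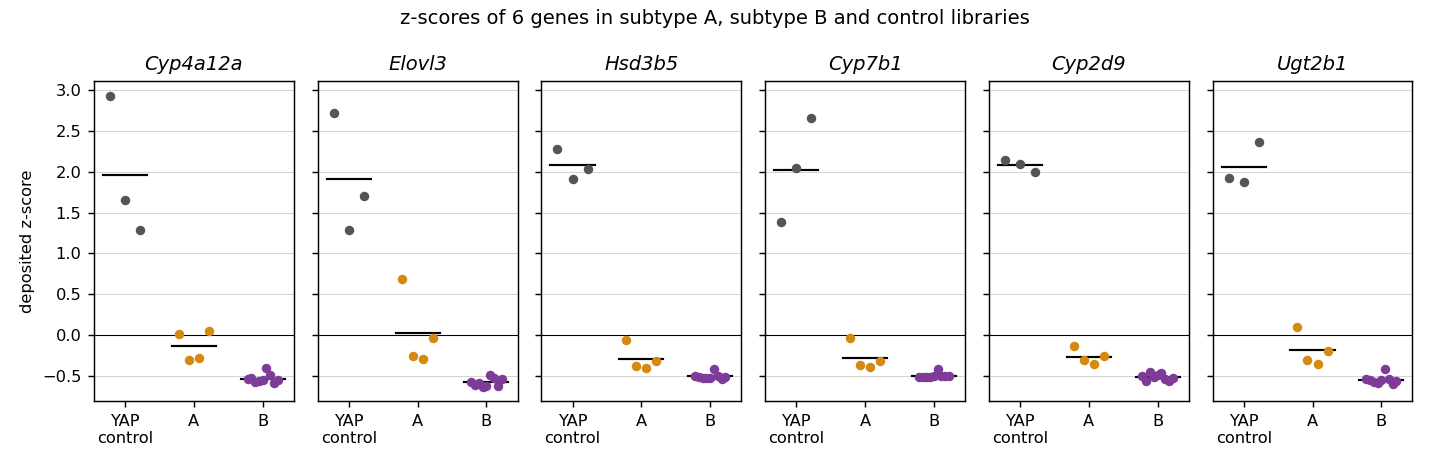
Deposited z-scores of 6 genes in 3 YAP control, 4 subtype A and 9 subtype B libraries; points are libraries and lines are group means. For each gene all controls lie at 1.28 or above, and every subtype A library lies above every subtype B library, with subtype A replicate 1 highest in 5 of the 6 genes.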

How the data were processed

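RNA of mouse liver samples was sequenced from strand-specific libraries, and the labels' protocols name frozen liver tumours as the source of all samples. FastQC, STAR, RSEM and DESeq2 are the tools, and mm10 the build, listed per the submitters' processing notes; versions and settings are not given in the sources used here. The first table holds a deposited signal that is never negative, the normalized count of each gene in 18 libraries. From the deposited values, 59.7 to 60.8% of low values per library were whole multiples (within 0.001) of 1 step, so depth is an estimate and no count test was run. The second table holds a deposited score, a z-score per gene that the authors computed over libraries. The design assumed a log scale for it, and limma without a trend was used instead.

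Libraries were grouped by the source label. For the 4 skip2 libraries another label field repeats skip1. Replicate numbers follow accession order. No sample column was left unused.

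Genes with a mean of at least 10 (6592 of 14086) were tested as log2(normalized count + 1) with limma 3.58.1 (R 4.3.3). All 18 libraries entered a single model of group means whose prior variance followed a trend. Tests were two-sided, p-values were adjusted by Benjamini and Hochberg's method over all genes tested, and adjusted p under 0.05 was called. The test was checked on simulated data. The 7 genes and all lists were chosen with earlier results of these data known. Named genes outside the 7 were at most 4 called genes per list and comparison with the largest differences, the 3 most alike genes per gene and the 10 most alike to the mean; exceptions are stated. Lists are described by counts alone, and values of some of their genes are not reported here. Alternatives were quantile and upper-quartile normalization, pseudocounts of 0.5 and 5, no filter or a minimum mean of 50, only the compared groups, all non-induced groups as comparator, array weights, a trended prior for z-scores, depth as a covariate and leaving out each replicate. Total scaling, both Tef fits and leaving out skip1 induced replicates 1 and 2 together were added after the data were seen.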

Additional observations from a re-analysis of the deposited data

Results flagged for a closer look

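The fall from the isoform alone to the induced state differed between skip1 and skip2 for Cyp4a12a (4.39), Hsd3b5 (4.25) and Sult2a8 (3.88 in log2(normalized count + 1)), each past limma's adjusted threshold for the difference itself. In the z-score table, subtype B replicate 6 lay far above the other 8 subtype B libraries for Hsd3b5 (-0.416), Cyp7b1 (-0.421) and Ugt2b1 (-0.416), a gap beyond Dixon's 95% limit. These were 3 of 24 gene and group combinations examined, and chance alone marks about 1 in 20.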

How the results depend on the processing

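No paired analysis was possible because replicate numbers follow accession order and link no libraries across groups. Of 1330 alternative values for the 7 genes, 1243 kept direction and side of the threshold, 39 lost the call, 15 gained it and 33 changed sign or came to 0, all of them for genes not called in that comparison. With only the 12 libraries high in Tef, 1 of the 7 genes was called in skip1 induced against skip1 alone (2 libraries against 1), and leaving out 1 library gave 2 to 4 called genes in subtype A against B, or 6 with only the compared groups or array weights. In skip1 induced against skip1 alone 5 were called with a pseudocount of 0.5, quantile normalization or total scaling. The share of all genes called ranged from 1.64 to 32.5% over alternatives in skip1 induced against skip1 alone (14.7% as reported), 5.25 to 31.3% in skip2 (14.9%) and 11.5 to 39.1% in dN90 induced samples (22.7%), highest with a minimum mean of 50. It was 0.152 to 11.1% between skip1 and skip2 induced samples (3.53%), 2.40 to 13.7% between skip1 and dN90 (4.63%), 0 to 8.46% between skip2 and dN90 (3.03%), and 0.0607 to 2.28% for the difference of falls (0.167%). Total scaling moved the median of all genes by 0.43 to 0.52 in the induced against non-induced comparisons.

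Signs turned as follows; the cause was not tested. Between skip2 and dN90 induced samples, Cyp4a12a was -0.27 with quantile normalization and -0.60 with depth as a covariate, Hsd3b5 -0.28 with quantile normalization and 0 to 0.67 on leaving out 1 library, and Ugt2b1 -0.36 with the depth covariate. For skip1 alone against wild type, Cyp4a12a was 0.15 with the depth covariate. Cyp2d9 was -0.13 with quantile normalization, -0.020 with total scaling, -0.094 with array weights and -0.17 to 0.31 on leaving out 1 library. Cyp7b1 was 0.034 with the Tef covariate and -0.41 to 0.35 on leaving out 1 library, Ugt2b1 -0.25 within the 12 libraries and -0.059 to 0.45, and Elovl3 -1.44 to 2.74. For skip2 alone against wild type, Elovl3 was 0.26 within the 12 libraries and -3.91 to 0.26 on leaving out 1 library. Cyp7b1 was -0.026 with quantile normalization, -0.081 with total scaling, -0.13 with the Tef covariate, -0.30 within the 12 libraries and -0.30 to 0.45 on leaving out 1. Sult2a8 was -0.13 with quantile normalization, -0.14 with total scaling, -0.21 with the Tef covariate and -0.023 to 0.063, and Ugt2b1 -0.059 within the 12 libraries and -0.059 to 0.45. The Elovl3 difference of falls was -0.18 with a pseudocount of 5. Depth limits values at or under 3 estimated reads, which covers Hsd3b5, Elovl3 and Cyp4a12a in skip2 and dN90 induced libraries, Sult2a8 in all dN90 and Cyp7b1 in 3 of 4 dN90 induced libraries.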
